A study of Homo sapiens with 4 samples.

Results

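The quantity described here is the difference, gene by gene, between 2 fibroblast coculture ratios in engineered prostate cancer tissues: the log2 ratio of the LNCaP coculture to the LNCaP monoculture minus the log2 ratio of the PC-3 coculture to the PC-3 monoculture. A value above 0 means that the coculture ratio was the more positive in the LNCaP tissues, and a value below 0 that it was the more negative there. The genes are those with at least 20 CPM (counts per 1000000 counts of the library) in all 4 libraries, and 6946 of the 17791 genes in the table passed, or 39.0%. The rule uses levels and not their differences, but it leaves out any gene that a monoculture held below 20 CPM, and with it most genes made by fibroblasts alone.

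PC-3 is a prostate cancer cell line that grows without androgen, and the submitters place it with castration-resistant disease (CRPC-ne in its titles, a suffix the labels do not explain). LNCaP is a prostate cancer line that responds to androgen, labelled ADPC, for androgen-dependent disease. BJ-5ta is a telomerase-immortalised line of normal human fibroblasts. The cells grew in a poly(ethylene glycol)-fibrinogen hydrogel, without drug treatment, and RNA was taken on day 15. The groups were PC-3 alone, LNCaP alone, PC-3 with BJ-5ta and LNCaP with BJ-5ta, the cocultures at 5 cancer cells to 1 fibroblast, with 1 library in each of the 4 groups. The series text gives RNA from more than 2 tissues a group without saying how it was combined, and the growth protocol describes the medium of the PC-3 tissues only, so cell line and medium cannot be told apart in the difference. Each line stands for 1 patient's tumour, and 1 fibroblast line for all stroma.

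Fibroblasts in a tumour secrete collagens and other matrix proteins, and they exchange growth factors, cytokines and mechanical signals with the cancer cells beside them. In bulk RNA the fibroblasts' own transcripts are added to those of the cancer cells, and fewer cells of a type and less RNA per cell cannot be told apart. A coculture ratio therefore holds both the added cells and any response of the cancer cells.

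With 1 library per group no test of any difference was possible. All intervals are 95% intervals from the counts (delta method) and cover counting error only, since reads that carry no molecular identifier can come from one molecule. Total counts lay between 15520243 and 15865690, so that 20 CPM stood for 310 to 317 counts. Ribosomal RNA genes took 0.751% of counts in the PC-3 monoculture, 2.16% in the PC-3 coculture, 1.46% in the LNCaP monoculture and 1.23% in the LNCaP coculture. KLK3, which encodes prostate-specific antigen, stood at 3797 CPM in the LNCaP monoculture and 4777 CPM in the LNCaP coculture and had 0 counts in both PC-3 libraries. The 16 fibroblast markers of a list fixed for this report summed to 138 CPM in the PC-3 monoculture, 608 CPM in the PC-3 coculture, 4.54 CPM in the LNCaP monoculture and 948 CPM in the LNCaP coculture. Of these markers, 7 had 0 counts in the PC-3 monoculture (MMP2, THY1, CD248, TIMP3, MXRA5, AEBP1 and POSTN) and 7 in the LNCaP monoculture (COL1A2, MMP2, LUM, DCN, FAP, MXRA5 and POSTN). In the cocultures POSTN alone was at 0, in the LNCaP library. Most of the PC-3 monoculture sum was S100A4 (81.7 CPM), COL6A3 (37.6 CPM) and COL5A1 (17.1 CPM). In the PC-3 coculture S100A4 was lower (67.9 CPM), and COL6A3 and COL5A1 were higher (175 and 33.1 CPM). The summed level was thus 470 CPM higher with fibroblasts in PC-3 tissues and 943 CPM higher in LNCaP tissues, and 12 of the 16 markers were higher in the LNCaP coculture than in the PC-3 coculture. None of the 16 markers reached 20 CPM in all libraries, so their values do not enter the difference. Endothelial markers (4 of 5 in the table) summed to 220 and 233 CPM in PC-3 tissues and to 10.8 and 36.7 CPM in LNCaP tissues, monoculture first. The PC-3 sums were mostly KDR (169 and 163 CPM) and PECAM1 (50.8 and 69.5 CPM). The LNCaP sums were mostly VWF (10.8 and 36.5 CPM), so the sums rest on different genes and are no readout of endothelial cells.

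Most differences were small. The median over the 6946 genes was 0.05, the SD 0.30 and the quartiles -0.14 and 0.22, while the range ran from -1.98 to 2.51. The interval reached a median of 0.18 to either side of a gene's value, so a large share of the genes could not be told from 0 on counting error alone. It lay above 0 in 2265 genes (32.6%) and below 0 in 1491 (21.5%). The LNCaP ratios were spread more widely than the PC-3 ratios, with SDs of 0.29 and 0.21. In LNCaP 141 genes (2.03%) were at least 1.5-fold higher with fibroblasts and 193 (2.78%) at least 1.5-fold lower, against 24 (0.346%) and 30 (0.432%) in PC-3. At 1.2-fold the counts were 1185 (17.1%) higher and 960 (13.8%) lower in LNCaP and 440 (6.33%) higher and 744 (10.7%) lower in PC-3. Across genes the ratios of the 2 lines, which share no library but share annotation, protocol and fibroblast line, had a Pearson r of 0.32 and a Spearman rho of 0.26, given as a description only.

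By size, 143 genes (2.06%) were at least 1.5-fold more positive in LNCaP and 178 (2.56%) at least 1.5-fold more negative. The excess of either side depended on the scaling: centring each log2 ratio on its own median gave 107 against 223, and median-of-ratios size factors gave 170 against 160. At 2-fold, 6 genes (0.0864%) were more positive and 30 (0.432%) more negative. All 12 ribosomal RNA genes are among the 178. Of the 143 more positive genes, 91 had an LNCaP ratio past 1.2-fold up with a PC-3 ratio within 1.2-fold, 36 were past 1.2-fold in opposite directions, 13 were past 1.2-fold down in PC-3 alone, and 3 were up in both lines and more so in LNCaP. Of the 178 more negative genes, 69 were past 1.2-fold down in LNCaP alone, 63 were opposite, 25 were down in both and more so in LNCaP, 18 were past 1.2-fold up in PC-3 alone, and 3 were up in both and more so in PC-3. The LNCaP ratio was the larger in size in 80.4% of the first set and 71.9% of the second. The share over all genes was not computed. Over all genes the LNCaP ratios were also spread more widely, with SDs of 0.29 against 0.21 in PC-3. Both ratios enter the difference by which the 2 sets were picked, so these shares follow in part from that choice.

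**Figure D1:**
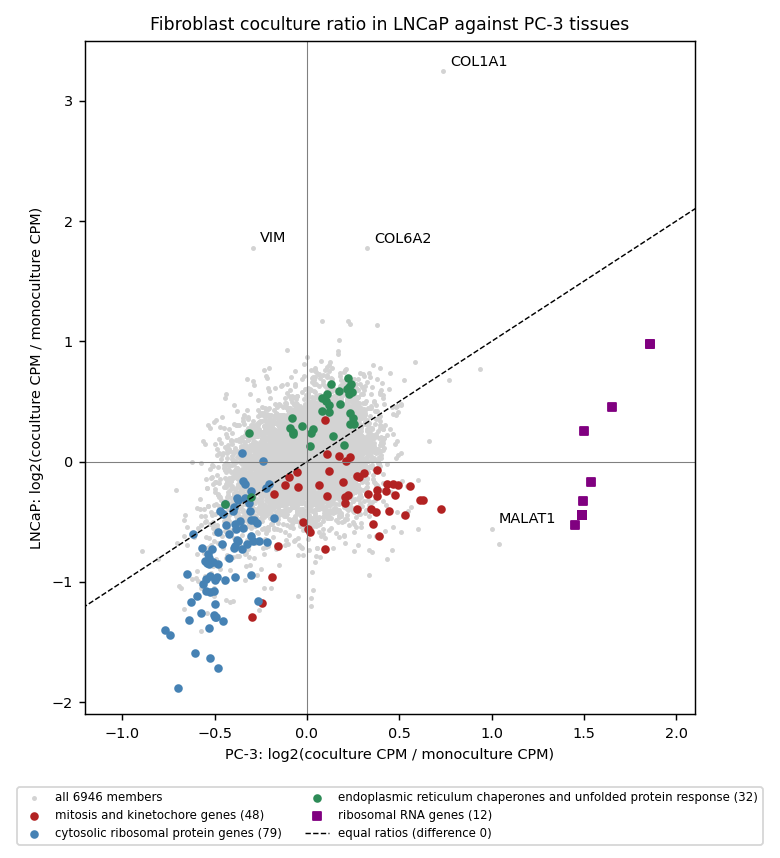
Log2 coculture over monoculture CPM in LNCaP tissues (vertical axis) against PC-3 tissues (horizontal axis), 1 point per gene for 6946 genes, with 3 gene lists and the 12 ribosomal RNA genes in colour and the line of equal ratios dashed. COL1A1, VIM and COL6A2 stand far above the line. Ribosomal RNA genes lie far to the right, mitosis genes mostly right of 0 and below 0, and ribosomal protein genes mostly below 0 on both axes.

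The most positive differences belonged to stromal and mesenchymal genes that the PC-3 tissues already held without fibroblasts. COL1A1, the alpha-1 chain of type I collagen (chromosome 17, 50184101 to 50201631, RefSeq on GRCh38.p14, as are all positions here), stood at 26.8 CPM in the LNCaP monoculture and 254 CPM in the LNCaP coculture, against 196 CPM and 327 CPM in PC-3 tissues. It was 9.49-fold higher with fibroblasts in LNCaP and 1.67-fold higher in PC-3, a difference of 2.51 (2.35 to 2.67). The levels of the cocultures were close, at a PC-3 to LNCaP ratio of 1.28, and those of the monocultures were not, at 7.30. In CPM, COL1A1 was 227 higher with fibroblasts in LNCaP tissues and 131 higher in PC-3 tissues.

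VIM, the intermediate filament vimentin of mesenchymal cells (chromosome 10, 17228241 to 17237593), stood at 98.3 and 338 CPM in LNCaP monoculture and coculture and at 811 and 662 CPM in the PC-3 libraries. Its difference was 2.07 (1.98 to 2.16), from a ratio of 1.78 in LNCaP and -0.29 in PC-3. COL6A2, a chain of type VI collagen (chromosome 21, 46098112 to 46132848), stood at 101 and 345 CPM in LNCaP and 625 and 784 CPM in PC-3, a difference of 1.45 (1.36 to 1.54). For all 3 genes the LNCaP monoculture was the lowest of the 4 libraries, and the PC-3 coculture stayed above the LNCaP coculture. The fibroblast marker sums above moved the same way, and the part of added fibroblast RNA in these 3 values was not tested. VIM is also among the 7 markers fixed for PC-3, which summed to 100 CPM in the LNCaP monoculture and 459 CPM in the LNCaP coculture. In the PC-3 monoculture and coculture they summed to 1626 and 1424 CPM. VIM itself made up 98.3 and 338 CPM of the LNCaP sums, so these sums are not a separate readout. VIM, CD44, CAV1 and LGALS1 of that list are made by fibroblasts as well.

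The next genes differed by about 2-fold. TRPS1, a zinc finger transcriptional repressor, stood at 36.4 and 81.8 CPM in LNCaP monoculture and coculture and at 53.1 and 56.1 CPM in PC-3, a difference of 1.09 (0.89 to 1.28). TNFRSF19, a cell surface receptor of the TNF receptor family, stood at 38.3 and 86.3 CPM in LNCaP and 28.7 and 33.4 CPM in PC-3, a difference of 0.95 (0.72 to 1.18). In both genes the LNCaP coculture was the highest library. LDOC1, a leucine zipper gene, stood at 125 and 116 CPM in PC-3, 122 CPM in the LNCaP monoculture and 232 CPM in the LNCaP coculture. MT2A, a metallothionein that binds zinc and copper, was also highest in the LNCaP coculture. It stood at 60.7 and 51.6 CPM in PC-3 and 62.9 and 107 CPM in LNCaP, a difference of 1.00 (0.82 to 1.17). Its PC-3 ratio was -0.24 (-0.37 to -0.10).

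In the remaining 5 of the 12 highest genes both lines contributed, as in VIM, LDOC1 and MT2A. Levels were lower in the PC-3 coculture and higher in the LNCaP coculture. IGFBP3, which binds insulin-like growth factors, stood at 722 and 627 CPM in PC-3 and 51.5 and 88.4 CPM in LNCaP, a difference of 0.98. KLHL5, a kelch family gene, stood at 172 and 127 CPM in PC-3 and 27.9 and 41.2 CPM in LNCaP, a difference of 1.00. MGLL, which cleaves monoglycerides, stood at 350 and 286 CPM in PC-3 and 41.7 and 66.4 CPM in LNCaP, a difference of 0.97. The LNCaP coculture stayed below both PC-3 libraries in these 3 genes. PLAAT3, a phospholipase and acyltransferase, differed by 0.97, and TP53INP2, an autophagy regulator, by 1.01. Among all 12 genes, the PC-3 monoculture was above the LNCaP monoculture in 10 (48.6% of all genes). The LNCaP ratio was above 0 in 12 (55.8% of all genes) and the PC-3 ratio below 0 in 8 (51.3% of all genes). These levels and ratios enter the difference by which the 12 genes were picked, so the counts follow in part from that choice.

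**Figure D2:**
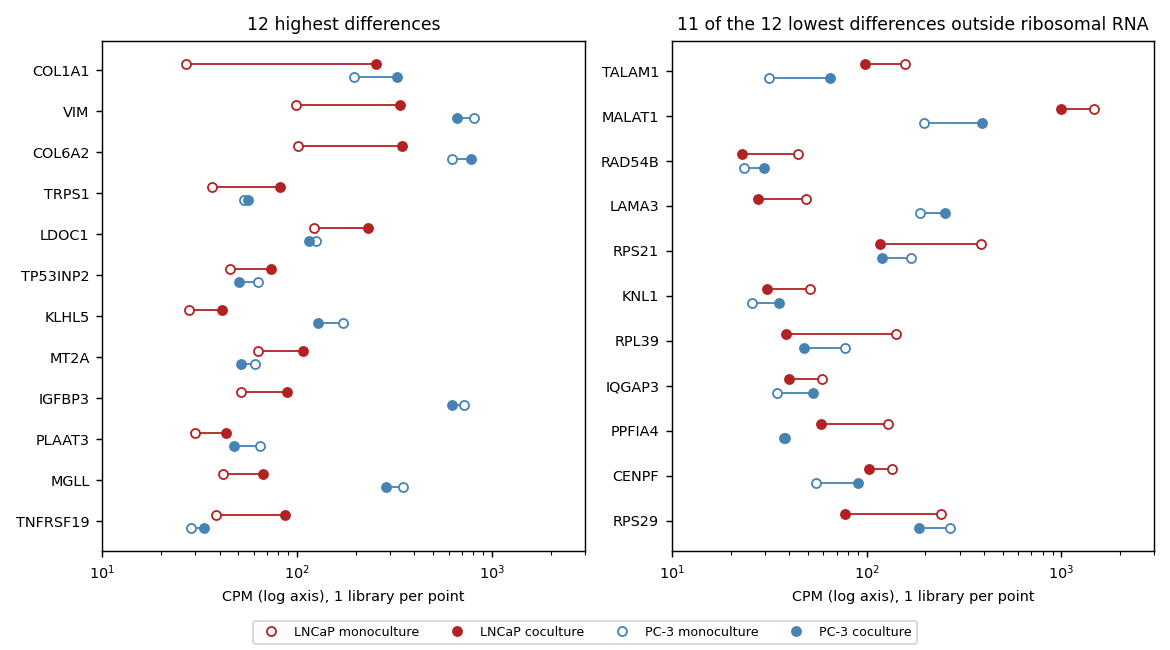
CPM in each library on a log axis for the 12 genes with the highest difference (left) and 11 of the 12 with the lowest outside ribosomal RNA (right), LNCaP in red and PC-3 in blue, open circles for monoculture and filled circles for coculture, with 1 library per point. COL1A1 spans 26.8 to 254 CPM in LNCaP and 196 to 327 CPM in PC-3, and MALAT1 runs in opposite directions in the 2 lines.

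As lists, the mesenchymal and matrix genes were few above 20 CPM. Of 24 mesenchymal transition genes, 5 passed, and all 5 had a difference above 0 (57.7% of all genes did), with a median of 0.56. With no minimum level and a prior count of 2, all 24 genes gave a median of 1.961, which depends on the prior count. Besides VIM these were the integrin subunits ITGB1 (0.63), ITGAV (0.39) and ITGA5 (0.31), which bind matrix, and FN1, fibronectin (0.56). FN1 stood at 896 and 1316 CPM in LNCaP and at 333 and 331 CPM in PC-3. Of 53 fibroblast and matrix genes, 16 passed, 9 with a difference above 0 and 7 below. That is near the shares of all genes (57.7% and 42.3%), and the median was 0.13. LAMA5, a laminin chain of basement membranes, was at the other end of that list at -0.63, with 181 and 139 CPM in LNCaP and 534 and 633 CPM in PC-3. PLOD2, a collagen lysyl hydroxylase, was at -0.31. This list's median turned to -0.04 when 50 CPM were required, where 10 genes were left.

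Mitosis genes were the list with the most negative median, and their usual pattern was a level higher with fibroblasts in PC-3 and lower with fibroblasts in LNCaP. These genes encode spindle motors, kinetochore and checkpoint proteins and mitotic kinases, and they are expressed in dividing cells, so bulk levels follow the share of cells that cycle. Of 71 genes of the list 48 passed, and 47 of them had a difference below 0 (42.3% of all genes did), 38 with an interval below 0 (21.5% of all genes) and 24 by at least 1.5-fold (2.56% of all genes). The median difference was -0.58, from a median of -0.27 in LNCaP and 0.23 in PC-3. In 33 of the 48 the LNCaP ratio was below 0 and the PC-3 ratio above 0, against 17.8% of all genes, and 0 had the reverse pattern. Summed over the 48 genes, the level was 2568 CPM in the PC-3 monoculture, 2982 CPM in the PC-3 coculture, 3533 CPM in the LNCaP monoculture and 2965 CPM in the LNCaP coculture. The monocultures thus lay apart and the cocultures close together. These sums use the same values as the differences and so are no separate readout. The summed fibroblast markers were higher in both cocultures, and the part of fibroblast RNA in the mitosis sums was not tested.

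CENPF, a kinetochore protein (chromosome 1, 214603195 to 214664571), stood at 54.8 and 90.8 CPM in PC-3 monoculture and coculture and at 135 and 103 CPM in LNCaP, a difference of -1.12 (-1.28 to -0.97). PLK1, a mitotic kinase (chromosome 16, 23678889 to 23690367), stood at 20.4 and 26.7 CPM in PC-3 and 50.6 and 33.1 CPM in LNCaP, a difference of -1.01 (-1.27 to -0.74). MKI67, the Ki-67 antigen used to stain cycling cells (chromosome 10, 128096659 to 128126423), stood at 83.0 and 127 CPM in PC-3 and 117 and 93.9 CPM in LNCaP, a difference of -0.93 (-1.07 to -0.79). In these 3 genes the PC-3 monoculture was the lowest library. KNL1, the kinetochore scaffold that recruits checkpoint proteins, is not in the list and stood at 25.7 and 35.4 CPM in PC-3 and 51.0 and 30.7 CPM in LNCaP, a difference of -1.19. The one gene of the list above 0 was CENPN, a centromere protein, at 0.24 (0.09 to 0.40), and BUB3, a checkpoint protein, was at -0.03 (-0.15 to 0.10).

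Some mitosis genes had a PC-3 ratio below 0 as well. In 10 of the 48 both ratios were below 0, and among them were CKS2 and CKS1B, small subunits that bind cyclin-dependent kinases. CKS2 stood at 24.8 and 20.1 CPM in PC-3 and 53.1 and 21.7 CPM in LNCaP, a difference of -0.99 (-1.27 to -0.71). CKS1B stood at 48.0 and 40.6 CPM in PC-3 and 62.1 and 27.5 CPM in LNCaP, a difference of -0.93 (-1.16 to -0.71). KIF4A, a chromosome-binding kinesin, followed the usual pattern, at 23.1 and 35.7 CPM in PC-3 and 29 and 23.3 CPM in LNCaP, a difference of -0.95 (-1.22 to -0.67).

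Many mitosis genes are repressed outside mitosis through a promoter element just upstream of the start, the cell cycle genes homology region, and activated through CCAAT boxes that bind NF-Y. Of the 48 genes 42 had an entry among 27305 RefSeq promoters. The letters TTTGAA, searched on both strands in the 250 bases upstream of the start, were in 20 of the 42 (47.6%), in 13.6% of all promoters and in 7.28% of the 5714 promoters of genes that passed the CPM rule. The letters CCAAT were in 29 of the 42 (69.0%), in 33.0% of all promoters and in 36.2% of those of genes that passed. The median difference was -0.67 in the 20 genes with TTTGAA and -0.49 in the 22 without, and -0.66 in the 29 genes with CCAAT and -0.45 in the 13 without. A match is a description of the letters and not a site shown to work. The promoters of 4 genes of the list with a TTTGAA match and large differences are given here because they carry these elements at like places. The choice did not cover the whole genome, so genes of the list with larger differences may be missing. Sequences run 5′ to 3′ on the plus strand of GRCh38.p14, with TTTGAA or its complement TTCAAA and CCAAT or its complement ATTGG in capitals.
PLK1: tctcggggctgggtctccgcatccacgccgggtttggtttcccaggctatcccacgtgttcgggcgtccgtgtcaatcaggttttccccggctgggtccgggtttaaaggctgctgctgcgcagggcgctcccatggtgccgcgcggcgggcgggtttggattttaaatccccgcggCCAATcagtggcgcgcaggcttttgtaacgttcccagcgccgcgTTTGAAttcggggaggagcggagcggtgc
CKS2: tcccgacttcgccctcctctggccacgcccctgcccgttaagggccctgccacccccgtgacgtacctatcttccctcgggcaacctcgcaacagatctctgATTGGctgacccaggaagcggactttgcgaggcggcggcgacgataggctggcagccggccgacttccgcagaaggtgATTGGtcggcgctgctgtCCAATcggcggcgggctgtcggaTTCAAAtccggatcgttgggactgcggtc
KIF4A: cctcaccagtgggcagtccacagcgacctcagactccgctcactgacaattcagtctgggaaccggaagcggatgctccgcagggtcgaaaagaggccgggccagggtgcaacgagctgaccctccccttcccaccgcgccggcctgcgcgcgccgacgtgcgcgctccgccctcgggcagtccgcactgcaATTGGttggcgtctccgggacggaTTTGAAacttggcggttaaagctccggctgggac
CKS1B: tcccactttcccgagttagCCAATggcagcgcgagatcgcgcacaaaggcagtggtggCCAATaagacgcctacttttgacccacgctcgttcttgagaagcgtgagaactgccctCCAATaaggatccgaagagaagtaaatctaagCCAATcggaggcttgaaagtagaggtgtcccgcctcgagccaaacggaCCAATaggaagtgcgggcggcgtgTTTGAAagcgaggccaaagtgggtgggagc

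These are chr16:23678639-23678888 for PLK1, chr9:89310945-89311194 for CKS2, chrX:70289854-70290103 for KIF4A and chr1:154974431-154974680 for CKS1B, each ending at the base before the start. The homology region letters ended 24 bases upstream in PLK1 and CKS2, 29 in KIF4A and 25 in CKS1B. The nearest CCAAT letters ended 69, 48, 54 and 50 bases upstream in the order PLK1, CKS2, KIF4A and CKS1B. PLK1 and KIF4A held 1 CCAAT match each, CKS2 held 3 and CKS1B 5.

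DNA replication genes showed a weaker form of the same pattern. Of 56 genes 39 passed, 31 with a difference below 0 (42.3% of all genes) and 5 by at least 1.5-fold (2.56% of all genes). The median was -0.23, from -0.08 in LNCaP and 0.15 in PC-3. POLE, the catalytic subunit of DNA polymerase epsilon (chromosome 12, 132623762 to 132687342), stood at 52.3 and 74.6 CPM in PC-3 and 76.4 and 50.9 CPM in LNCaP, a difference of -1.10 (-1.28 to -0.92). GINS1, a subunit of the replicative helicase, stood at 33.0 and 34.3 CPM in PC-3 and 64.4 and 39.2 CPM in LNCaP, a difference of -0.77. At the other end were the clamp loader subunits RFC4, at 0.26 (-0.02 to 0.54), and RFC1, at 0.19 (0.04 to 0.34). RAD54B, a homologous recombination gene, had the lowest difference outside ribosomal RNA and the MALAT1 locus, at 23.6 and 29.7 CPM in PC-3 and 44.2 and 23 CPM in LNCaP, a difference of -1.28 (-1.54 to -1.01).

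**Figure D3:**
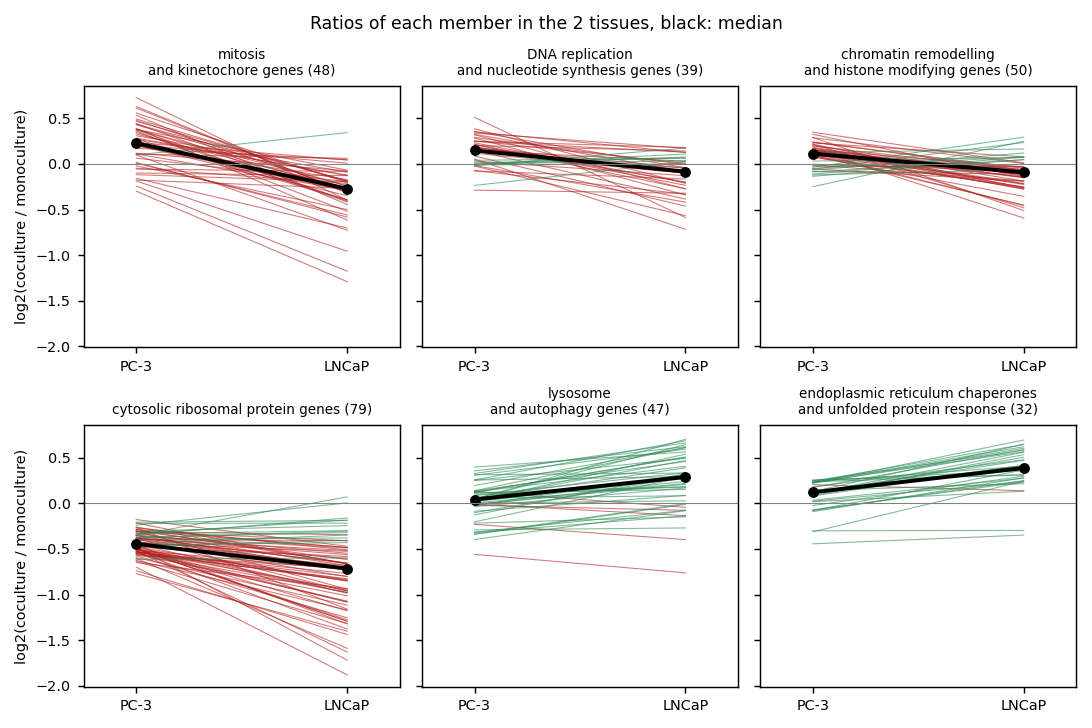
Log2 ratio of coculture to monoculture in PC-3 (left end) and LNCaP (right end) for each gene of 6 lists, 1 line per gene, red where the difference is below 0 and green where it is above, with the medians in black. Mitosis, replication and chromatin medians cross from above 0 to below 0, ribosomal protein lines start below 0 and slope down, and lysosome and chaperone lines slope up.

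Ribosomal protein genes were lower with fibroblasts in both lines, and more so in LNCaP. They encode the protein part of the cytosolic ribosome. Of 81 genes 79 passed, and 77 of them had both ratios below 0 (26.4% of all genes did). The difference was below 0 in 64 (42.3% of all genes), by at least 1.5-fold in 16 (2.56% of all genes). In 0 genes it was at least 1.5-fold the other way (2.06% of all genes). The median ratio was -0.72 in LNCaP and -0.45 in PC-3, and the median difference -0.31. RPL39 stood at 142 and 38.6 CPM in LNCaP and 77.6 and 47.7 CPM in PC-3, a difference of -1.18. RPS21 stood at 384 and 117 CPM in LNCaP and 168 and 120 CPM in PC-3, a difference of -1.24 (-1.35 to -1.12). RPS29 stood at 240 and 77.7 CPM in LNCaP and 267 and 186 CPM in PC-3, a difference of -1.11. RPS26 and RPL4 were at the other end, at 0.42 and 0.24, with LNCaP levels that hardly differed (250 and 262 CPM, 2153 and 2160 CPM). These genes have many processed pseudogenes of near-identical sequence, and how reads were shared among the copies is not given in the sources used here, so single values are uncertain.

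Nuclear-encoded respiratory chain subunits also had both ratios below 0 in most cases, in 62 of 71 genes (26.4% of all genes). Their medians were nearly equal, at -0.37 in LNCaP and -0.30 in PC-3. The median difference was -0.10, with 50 genes below 0 (42.3% of all genes) and 3 at least 1.5-fold more negative (2.56% of all genes). COX5B, of cytochrome c oxidase, stood at 105 and 50.8 CPM in LNCaP and 66.2 and 57.8 CPM in PC-3, a difference of -0.86. ATP5MF, of the ATP synthase, was at -0.76, and NDUFA5, of complex I, at 0.42. Mitochondrial ribosomal proteins (60 genes) had ratios of -0.18 in LNCaP and -0.17 in PC-3 at the median and a median difference of 0.03, whose sign turned under another scaling.

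Many of these genes are short, and the ratios differed with length. The genes were split into 10 groups of nearly equal size by exonic length. In the shortest group (177 to 1751 bases) the median ratio was -0.18 in LNCaP and -0.21 in PC-3, and the difference -0.003. The difference was 0.08 and 0.10 in the next 2 groups and -0.03 in the longest (8614 bases and more). Without the ribosomal protein genes the shortest group had medians of -0.15 and -0.18. In the shortest group 3.61% of genes were at least 1.5-fold more negative and 1.01% at least 1.5-fold more positive, against 1.45% and 2.17% in the next group. With each ratio corrected for length the median difference was -0.31 in the ribosomal protein list and -0.60 in the mitosis list. Exonic length here is the union of a gene's annotated exons, 8211 bases in RPS29 and 7988 in RPL37. It can be longer than a transcript, so the corrected medians do not settle the part of transcript length. What made the ratios of short genes lower was not tested.

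**Figure D4:**
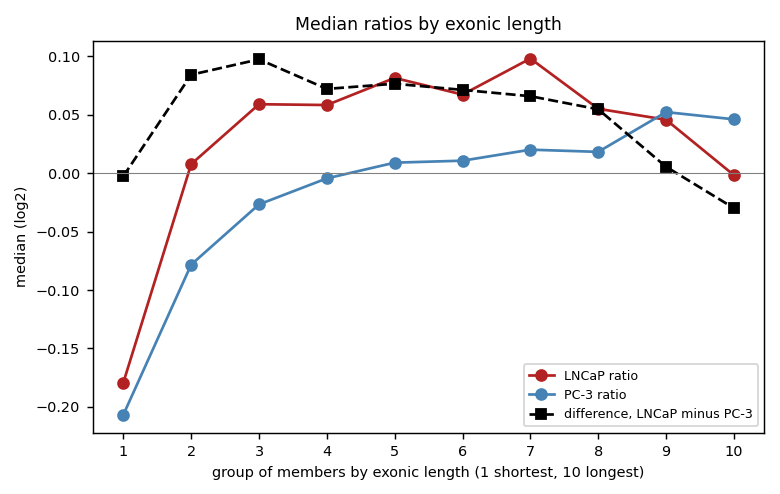
Median log2 ratio in LNCaP (red) and PC-3 (blue) and median difference (black, dashed) in 10 groups of genes in order of exonic length. Both ratios are lowest in the shortest group, at -0.18 and -0.21, while the difference stays between -0.03 and 0.10 in all groups.

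Ribosomal RNA and a few nuclear RNAs held the lowest differences of all. RNA28SN2, a copy of the 28S ribosomal RNA gene, stood at 1996 and 5472 CPM in PC-3 monoculture and coculture and 3898 and 2713 CPM in LNCaP, a difference of -1.98. The copies RNA18SN1, RNA18SN2, RNA18SN3, RNA18SN4 and RNA18SN5 had identical counts, and so reflect 1 pool of reads, at 287 and 805 CPM in PC-3 and 609 and 448 CPM in LNCaP, a difference of -1.93. RNA28SN1 (-1.82), RNA28SN5 (-1.71) and RNA45SN2 (-1.25) were also among the 12 lowest. RNA45SN1 and RNA45SN5, copies of the precursor, were higher in both cocultures, with a ratio of 0.98 in LNCaP and 1.86 in PC-3 each. All 12 had a PC-3 ratio of 1.45 or more. With 1 library per group, ribosomal RNA levels in the tissues and differences in library preparation cannot be told apart. The ribosomal RNA shares of the libraries given above are sums over the 13 ribosomal RNA genes in the table, these 12 among them, and so are no separate evidence. With these genes left out of totals and members, a choice made after seeing the data, 117 genes were at least 1.5-fold more positive and 198 more negative.

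MALAT1, a nuclear noncoding RNA (chromosome 11, 65497738 to 65506516), stood at 196 and 392 CPM in PC-3 and at 1463 and 993 CPM in LNCaP, a difference of -1.56 (-1.63 to -1.49). TALAM1, transcribed from the opposite strand of the same place (65499312 to 65507432), stood at 31.6 and 65.1 CPM in PC-3 and 158 and 98.4 CPM in LNCaP, a difference of -1.72 (-1.90 to -1.54). The library kit does not mark strand, so the reads of the pair cannot be told apart and the 2 values are not independent. NEAT1, the RNA scaffold of paraspeckles, was at -0.42 (-0.45 to -0.38), with 1901 and 1391 CPM in LNCaP and 1701 and 1663 CPM in PC-3. Of the other noncoding RNAs of this list that passed, NORAD was at 0.38 (0.33 to 0.42) and OIP5-AS1 at 0.10. The nuclear noncoding RNAs therefore had no common direction, and the median of this short list, -0.42, was -1.05 at 5 CPM (7 genes), -0.16 at 50 CPM (4 genes) and -0.038 with a length correction, which leaves out TALAM1 and moved NEAT1 to -0.25.

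Chromatin genes, like mitosis and replication genes, had a median ratio above 0 in PC-3 and below 0 in LNCaP. Of 54 genes 50 passed, 39 with a difference below 0 (42.3% of all genes) and 3 by at least 1.5-fold (2.56% of all genes). The median was -0.26, from -0.09 in LNCaP and 0.11 in PC-3. The LNCaP ratio was below 0 and the PC-3 ratio above 0 in 31 of the 50 (17.8% of all genes). TET3, which oxidises methylated cytosine, stood at 62.0 and 43.6 CPM in LNCaP and 43.4 and 53 CPM in PC-3, a difference of -0.80. KMT2D, a histone H3 methyltransferase, stood at 205 and 136 CPM in LNCaP and 197 and 220 CPM in PC-3, a difference of -0.75 (-0.86 to -0.64). HDAC3, a histone deacetylase, and SUZ12, a subunit of the Polycomb repressive complex, were at the other end at 0.50 and 0.33. Splicing factors also had a median ratio below 0 in LNCaP (-0.11) and above 0 in PC-3 (0.03). Their median difference was -0.12, with 34 of 48 below 0 (42.3% of all genes), from -0.59 for HNRNPH2 to 0.26 for HNRNPDL.

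Genes of the secretory pathway lay above 0 almost without exception. Chaperones and enzymes of the endoplasmic reticulum fold secreted proteins, and their genes are raised when that load grows. Of 35 genes 32 passed, and 31 had a difference above 0 (57.7% of all genes). The interval lay above 0 in 26 (32.6% of all genes), although 0 reached 1.5-fold (2.06% of all genes). The median was 0.33, from 0.39 in LNCaP and 0.12 in PC-3, and 24 of the 32 were higher with fibroblasts in both lines (30.9% of all genes). HSP90B1, the chaperone GRP94, stood at 1001 and 1567 CPM in LNCaP and 692 and 756 CPM in PC-3, a difference of 0.52 (0.47 to 0.57). DNAJB9, a cochaperone, stood at 37.3 and 44.1 CPM in LNCaP and 30.3 and 24.3 CPM in PC-3, a difference of 0.56 (0.30 to 0.81). SEC61B, of the translocation channel, was at 0.00, and PPP1R15B, a phosphatase subunit for eIF2 alpha, at -0.07. The summed fibroblast markers were higher in both cocultures too, and most of all in LNCaP, and the part of fibroblast RNA in this list was not tested.

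Lysosome and autophagy genes gave a like picture. Of 54 genes 47 passed, 42 with a difference above 0 (57.7% of all genes) and 5 below (42.3% of all genes). The median was 0.25, from 0.29 in LNCaP and 0.04 in PC-3. TPP1, a lysosomal peptidase, stood at 61.3 and 95.7 CPM in LNCaP and 159 and 164 CPM in PC-3, a difference of 0.59 (0.45 to 0.73). TPP1 hardly differed between the PC-3 libraries. ATP6V1G1, of the proton pump, was lower in both cocultures and at -0.20.

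MHC class I and antigen processing genes were higher in both cocultures in 13 of 14 cases (30.9% of all genes). Their median difference was 0.27, with 11 above 0 (57.7% of all genes), and 0.15 at 50 CPM (9 genes). HLA-E, a non-classical class I molecule, stood at 35.7 and 66.6 CPM in LNCaP and 416 and 468 CPM in PC-3, a difference of 0.73 (0.57 to 0.88), and HLA-C was at -0.11 (-0.17 to -0.05). Reads of class I genes can be shared among family members. Of 14 interferon-stimulated genes that passed, 6 were above 0 and 8 below (57.7% and 42.3% of all genes), and the median was -0.12. That sign depended on the minimum level. The median was 0.02 at 5 CPM, with 16 of 30 genes above 0 (54.9% of all genes there). With no minimum and a prior count of 2 it was 0.30, with 38 of 55 above 0 (53.1% of all genes there). OAS3, an antiviral sensor, stood at 898 and 1255 CPM in PC-3 and 38.1 and 38.9 CPM in LNCaP, a difference of -0.45 (-0.62 to -0.29), and STAT2, which relays interferon signals, was also at -0.45. TAP1, a peptide transporter that belongs to both groups by function, was at 0.38.

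Metal and redox genes were mostly above 0. Of 34 metallothionein, zinc and iron genes 26 passed, 23 with a difference above 0 (57.7% of all genes). Of these, 3 reached 1.5-fold (2.06% of all genes), and the median was 0.21. Besides MT2A, HMOX1, which degrades haem, was at 0.62 (0.38 to 0.87), but from the PC-3 side, with 70.0 and 45.4 CPM in PC-3 and 24.7 and 24.6 CPM in LNCaP. Targets of the oxidative stress factor NRF2 were mixed, with 20 of 31 above 0 (57.7% of all genes) and a median of 0.20. NQO1, a quinone reductase, stood at 50.9 and 83.0 CPM in LNCaP and 111 and 104 CPM in PC-3, a difference of 0.79 (0.63 to 0.95), while SLC7A11, the cystine transporter, was at -0.48 (-0.64 to -0.33).

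Androgen-regulated genes could be compared only where PC-3 also held them at 20 CPM, which was so for 18 of 34. Of the 18, 16 had a difference above 0 (57.7% of all genes), and the median was 0.20, from 0.17 in LNCaP and -0.06 in PC-3. TMPRSS2, a membrane serine protease, stood at 1340 and 1803 CPM in LNCaP and 461 and 407 CPM in PC-3, a difference of 0.61 (0.55 to 0.66). ABCC4, a drug and prostaglandin exporter, stood at 317 and 539 CPM in LNCaP and 38.8 and 40.0 CPM in PC-3, a difference of 0.72 (0.56 to 0.89). SLC45A3, the prostate protein prostein, was at -0.23, with 373 and 393 CPM in LNCaP and 243 and 300 CPM in PC-3. Luminal and epithelial genes as a list were at -0.02, with DSP, the desmosomal plaque protein, at -0.59 (-0.67 to -0.51) and CD24, a surface glycoprotein, at 0.50 (0.30 to 0.69).

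**Figure D5:**
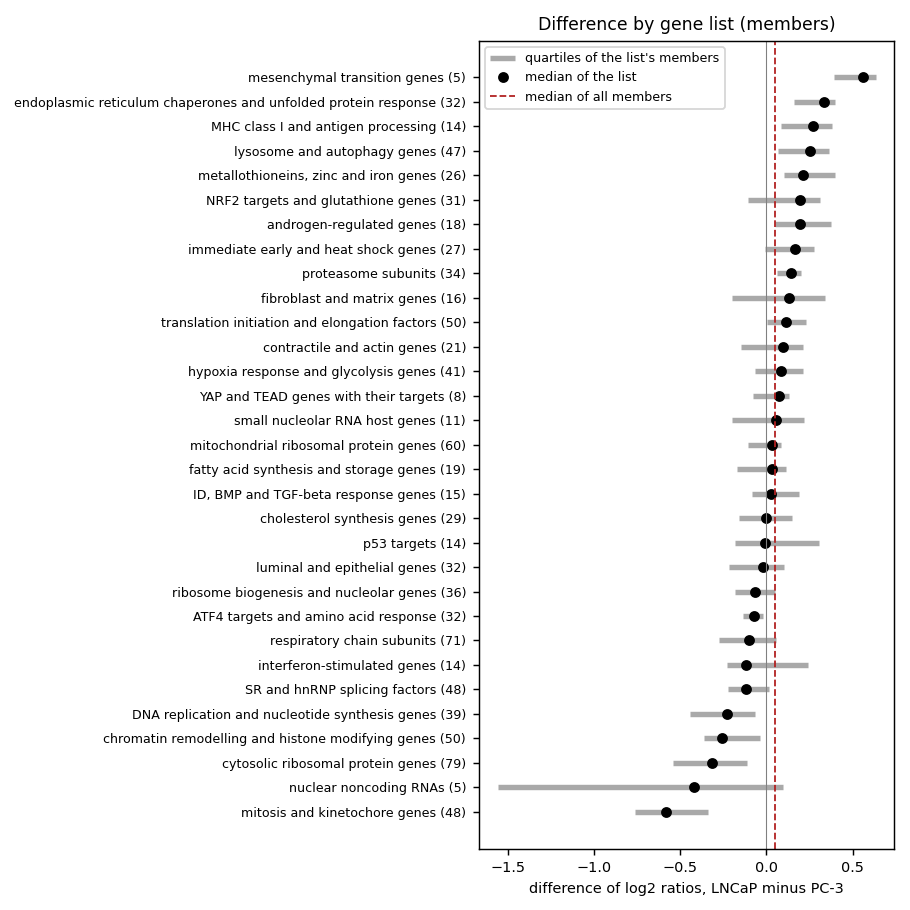
Median difference (points) and quartiles (grey bars) of the members of each of 31 gene lists, in order, with the median of all genes dashed at 0.05 and the number of members in brackets. Mitosis genes are lowest at -0.58, and mesenchymal genes (5 members) and endoplasmic reticulum genes are highest at 0.56 and 0.33.

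Other lists lay near the median of all genes. Hypoxia and glycolysis genes were at 0.08 (25 of 41 above 0), proteasome subunits at 0.14 (27 of 34) and translation factors at 0.11 (38 of 50). Of all genes 57.7% were above 0. Immediate early and heat shock genes were at 0.17, with KLF4, a transcription factor, at 0.79 (0.58 to 1.00) and HSPE1, a mitochondrial chaperone, at -0.64 (-0.84 to -0.44). Contractile genes were at 0.10, and YAP targets at 0.07 from 8 genes. Targets of ATF4, the amino acid response factor, were at -0.07, with 25 of 32 below 0 (42.3% of all genes). Ribosome biogenesis genes were at -0.07. Medians of cholesterol synthesis (0.00), p53 target (-0.01), fatty acid synthesis (0.03), luminal (-0.02) and BMP and TGF-beta response genes (0.03) were so near 0 that their sign turned with the scaling. Hosts of small nucleolar RNAs were at 0.06.

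Genes past 1.2-fold in opposite directions were few, 42 (0.605%) up in LNCaP and down in PC-3 and 66 (0.95%) the other way. Besides PLAAT3 and KLHL5, the clearest of the first kind were ALDH1A3, a retinaldehyde dehydrogenase (86.9 and 120 CPM in LNCaP, 659 and 502 CPM in PC-3, difference 0.86), ERRFI1, a feedback inhibitor of the EGF receptor (0.83), SH3BGRL3 (0.84) and TCTA (0.80). Clearest of the second kind, with MALAT1, TALAM1, POLE and RNA28SN2, were IQGAP3, a scaffold protein (58.9 and 40.0 CPM in LNCaP, 34.7 and 52.7 CPM in PC-3, difference -1.16), and PBK, a mitotic kinase (57.5 and 39.5 CPM in LNCaP, 21.7 and 30.0 CPM in PC-3, difference -1.01). The low difference of PPFIA4, a liprin scaffold, came from LNCaP alone, at 129 and 58.6 CPM in LNCaP and 37.5 and 38.1 CPM in PC-3, a difference of -1.16. That of LAMA3, a laminin chain of epithelial basement membranes, came from both lines, at 48.7 and 27.8 CPM in LNCaP and 187 and 252 CPM in PC-3, a difference of -1.24 (-1.42 to -1.06).

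Past 1.2-fold in the same direction were 126 genes higher in both cocultures (1.81%) and 326 lower in both (4.69%). By the smaller of a gene's 2 ratios, the 4 highest in both were COL1A1, RNA45SN1, RNA45SN5 and HSPA6, and the 4 lowest in both were SNHG32, RPL37, HILPDA and RPS20. In 5 of these the size still differed between the lines, with a difference of 2.51 in COL1A1, -0.88 in RNA45SN1 and RNA45SN5, -0.63 in RPL37 and -0.70 in RPS20. The ratios of the other 3 were closer. HSPA6, an inducible heat shock protein, stood at 56.0 and 107 CPM in PC-3 and 26.5 and 45.4 CPM in LNCaP, a difference of -0.16 (-0.37 to 0.05). SNHG32, a small nucleolar RNA host gene, stood at 85.1 and 48.7 CPM in PC-3 and 85.0 and 48.4 CPM in LNCaP, a difference of -0.01 (-0.19 to 0.17). HILPDA, a hypoxia-induced lipid droplet protein, stood at 347 and 187 CPM in PC-3 and 137 and 82.2 CPM in LNCaP, a difference of 0.16 (0.04 to 0.27).

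The genes nearest the 20 CPM threshold are given as examples and do not show how differences behave there. SLX4IP, PTPN18 and LRRC40 passed with a lowest level of 20.0 CPM and had differences of 0.14, 0.13 and -0.14, each with an interval that held 0. FAM3C, whose lowest level also rounds to 20.0 CPM, had a difference of 0.87 (0.64 to 1.09). TFIP11, AHCTF1P1 and PMS1 were just short, also with a lowest level that rounds to 20.0 CPM. The rule left out 153 genes that only the LNCaP monoculture held below 20 CPM, 91 that only the PC-3 monoculture held below it, and 12 that reached it in both cocultures and neither monoculture.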

How the data were processed

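Total RNA was extracted with QIAshredder and RNeasy kits and sequenced from TruSeq RNA v2 libraries, per the labels' protocols. The authors deposited estimated counts per gene symbol, neither scaled nor whole in 33.7% to 34.1% of values. The submitters' processing notes name FastQC, STAR, Partek and build hg38 without versions, and the step each tool served, the annotation and any filter are not given in the sources used here. Counts were rounded to whole numbers and divided by the column total, times 1000000 (CPM), with no prior count. Genes with at least 20 CPM in all 4 columns were kept. The difference is the LNCaP log2 ratio minus the PC-3 log2 ratio, with a 95% delta-method interval on the 4 counts, and 1 library per group allowed no test. The calculation was tested on simulated data. Size was described at 2-fold, 1.5-fold and 1.2-fold.

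The genes and the 31 gene lists were chosen with earlier results of these data known. Named genes were the 12 highest and 12 lowest differences, 6 of each kind with opposite directions, 4 highest and 4 lowest in both lines, the 2 highest and 2 lowest of each list (all where 6 or fewer), cell type markers, 3 genes on either side of the threshold, and COL1A1 and MKI67. The genes that replace ribosomal RNA among the 12 lowest, and FAM3C, were named after their values were seen. The grouping of genes by how the 2 ratios combined was also chosen after that. Genes that the rule names and the text does not give are not reported here. Positions came from RefSeq on GRCh38.p14 (6850 of the 6946 genes matched), promoters from RefSeq on the same build, and exonic lengths from GENCODE release 29 (6912 matched). Alternatives were TMM factors (edgeR 4.0.16), median-of-ratios size factors (DESeq2 1.42.0, in R 4.3.3), centred ratios, minimums of 5 and 50 CPM, no minimum with a prior count of 2, that prior count alone, no rounding, a lowess correction for length (fraction 0.3) and, added after seeing the data, totals without ribosomal RNA genes. Python 3.11.15 with numpy 2.4.6, pandas 2.3.3, scipy 1.17.1 and matplotlib 3.10.9 was used for the rest.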

Additional observations from a re-analysis of the deposited data

Results flagged for a closer look

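In the mitosis and kinetochore list the median ratio was below 0 in the single LNCaP comparison and above 0 in the single PC-3 comparison, a median difference of -0.58. Single genes with opposite directions were, above 0, PLAAT3 (difference 0.97), KLHL5 (1.00), ALDH1A3 (0.86), SH3BGRL3 (0.84), ERRFI1 (0.83) and TCTA (0.80). Below 0 they were RNA28SN2 (difference -1.98), TALAM1 (-1.72), MALAT1 (-1.56), IQGAP3 (-1.16), POLE (-1.10) and PBK (-1.01). With 1 library per group these differences between the lines were not tested.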

How the results depend on the processing

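Counts of genes followed the minimum level. With 5 CPM in place of 20, 37 genes were at least 2-fold more positive in LNCaP and 87 more negative, 324 and 467 at 1.5-fold, and 98 and 176 were opposite past 1.2-fold (LNCaP up and LNCaP down). With 50 CPM these counts were 3, 16, 50, 74, 13 and 22, and with no minimum and a prior count of 2 they were 1480, 1359, 2507, 2579, 695 and 992. The fit corrected for length held the genes with an exonic length, which leaves out 12 of the 30 genes at least 2-fold more negative (10 of them ribosomal RNA), and gave 18. Centring left 27 genes up in LNCaP and down in PC-3, against 42. At 1.5-fold the split of more positive against more negative genes was 127 to 203 with TMM factors and 170 to 160 with median-of-ratios size factors. The median difference over all genes lay between 0.01 and 0.08 in every setting. The median of the fibroblast and matrix list, 0.13, reversed to -0.038 at 50 CPM, where 10 genes were left, and was 1.45 with no minimum and a prior count of 2. Of 31 list medians, those that moved by more than the counting interval (for a list, the median interval of its genes) numbered 4 with no minimum, 2 more at 50 CPM, 1 at 5 CPM and 1 with the length correction. With no minimum the YAP and TEAD list moved from 0.07 to 0.27, and at 50 CPM, within that interval, the contractile list went from 0.10 to 0.006, the cholesterol synthesis list from -0.002 to 0.09 and the p53 target list from -0.01 to -0.07. Of the named genes, 6 of 162 moved by more than their interval with the length correction, 5 of 174 with centring and 1 of 174 with median-of-ratios size factors. No list and no named gene did so with TMM factors, a prior count of 2, counts left unrounded or ribosomal RNA left out. The list medians for mitosis lay between -0.62 and -0.55, and those for ribosomal proteins between -0.35 and -0.29, over all settings. No paired analysis was possible because each group had 1 library, and for the same reason no replicate could be left out. The counting interval reached at most 0.31 to either side of a gene's value, with a median of 0.18, and a difference within a gene's own interval was not detectable at this depth.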
